A study of Mus musculus with 8 samples.

Results

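The Nuclear factor I (NFI) family of the mouse has 4 genes, Nfia, Nfib, Nfic and Nfix, and each was read here from the transcript cluster that named it alone and had the highest mean over the arrays, so that the family made up 4 of the 19928 genes tested. The mRNA abundance was measured in olfactory mucosa of mice at postnatal day 3, with 1 Affymetrix Mouse Gene ST array per mouse. The 4 conditional knockouts (cKO) had the genotype 123Cre:Lhx2(fl/fl), and of the 4 littermate controls 2 were 123Cre:Lhx2(fl/+) (controls 3 and 4) and 2 were Lhx2(fl/+) (controls 1 and 2). All 8 mice were of a mixed 129 x C57BL/6J background and carried at least 1 floxed Lhx2 allele, and the comparison asks how mRNAs of the mucosa differ when both alleles can be lost.

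As a model the cKO is limited in several ways. The 123Cre transgene becomes active in immature olfactory sensory neurons (OSNs), so progenitors and the non-neuronal cells of the mucosa keep Lhx2. The floxed segment is the first exons only, and by the study's own histology the deletion is incomplete. The tissue was profiled whole, so fewer cells of a type and less RNA per cell cannot be told apart.

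NFI proteins bind DNA as dimers at a palindrome whose arms read TTGGC and GCCAA, through an amino-terminal domain that the members share, and they activate some genes and repress others. In the brain Nfia and Nfib are needed for the start of gliogenesis and mark later born neurons, Nfix guides the differentiation of neural progenitors, and Nfic is best known from the roots of teeth. In the mouse olfactory epithelium Nfia, Nfib and Nfix are regulators of zonal odorant receptor (OR) expression: they are made more strongly toward ventral zones, and their combined loss shifts receptor choice of ventral OSNs toward receptors of more dorsal zones. Lhx2, the LIM-homeodomain protein deleted here, binds OR promoters and enhancers.

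None of the NFI mRNAs passed the test of cKO against control (0 of 4 at an adjusted p under 0.01 by limma, where 2.13% of all genes passed, 2.07% lower and 0.0602% higher). All fitted differences were small and above 0, as were those of 62.3% of all genes, and Nfib was the member with the clearest separation. The median difference of the members was 0.11 on the log2 scale, against 0.03 over all genes tested. Without control 3 the members' median was 0.04 (all genes 0.02), and without control 2 it was 0.14 (all genes 0.03). With only the Lhx2(fl/+) controls it was 0.03 (all genes 0.01), and with only the 123Cre:Lhx2(fl/+) controls 0.17 (all genes 0.03). At an unadjusted p under 0.05 by limma 1 of 4 was higher, where 5.13% of all genes were. The methods' t-test, a plain one, called 0 of the 4, but it called only 1 of all 19928 genes. It also called 0 of 17 mature OSN markers, so its counts of 0 here and below could hardly come out otherwise.

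Nfib (transcript cluster 10514054), which in the brain acts together with Nfia, read 12.68, 12.80, 12.76 and 12.76 (log2 signal) in cKO mice 1 to 4, against 12.61, 12.65, 12.48 and 12.66 in controls 1 to 4. All cKO arrays lay above all control arrays, a pattern shown by 3.18% of all genes, but the gap between cKO 1 and control 4 was narrow. The group means were 12.75 ± 0.05 in cKO mice and 12.60 ± 0.08 in controls (SD, n = 4 each). The difference was 0.15 (SE 0.05, 95% interval 0.03 to 0.27), which is 10.8% more mRNA with an interval of 1.85% to 20.5%. Its p by limma was 0.0225 before adjustment, 2117 genes had a smaller one, and the adjusted p was 0.211.

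Nfia (transcript cluster 10506031), the member best known from the switch of neural precursors to glia, read 11.64, 11.80, 11.82 and 11.67 in cKO mice 1 to 4, against 11.62, 11.71, 11.34 and 11.65 in controls 1 to 4. The groups overlapped, with control 2 above cKO 1 and cKO 4, and control 3 was by far the lowest array. The means were 11.73 ± 0.09 in cKO mice and 11.58 ± 0.16 in controls (SD, n = 4 each). The difference was again 0.15, with a wider error than for Nfib (SE 0.09, 95% interval -0.04 to 0.35, adjusted p = 0.486 by limma), and without control 3 it was 0.07.

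Nfix (transcript cluster 10580191) read 12.39, 12.44, 12.52 and 12.44 in cKO mice 1 to 4, against 12.40, 12.49, 12.20 and 12.39 in controls 1 to 4. Only control 3 stood well apart, and the other 7 arrays spanned the same narrow range in both groups. The means were 12.45 ± 0.05 in cKO mice and 12.37 ± 0.12 in controls (SD, n = 4 each), a difference of 0.08 (SE 0.07, 95% interval -0.07 to 0.23, adjusted p = 0.673 by limma), which without control 3 was 0.02. As a percentage of the control mRNA the interval runs from -4.92% to 17.0%.

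Nfic (transcript cluster 10371176), the member not named above as a regulator of zones, read 10.60, 10.78, 10.75 and 10.64 in cKO mice 1 to 4, against 10.65, 10.89, 10.55 and 10.64 in controls 1 to 4. Both the highest and the lowest array were controls, so the cKO values lay inside the control range. The means were 10.69 ± 0.09 in cKO mice and 10.68 ± 0.14 in controls (SD, n = 4 each). The difference of 0.01 (SE 0.08, 95% interval -0.16 to 0.19, adjusted p = 0.966 by limma) has an interval of -10.8% to 14.1% as a percentage of the control mRNA. Its sign turned with the centring of the arrays and with the choice of controls.

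**Figure D1:**
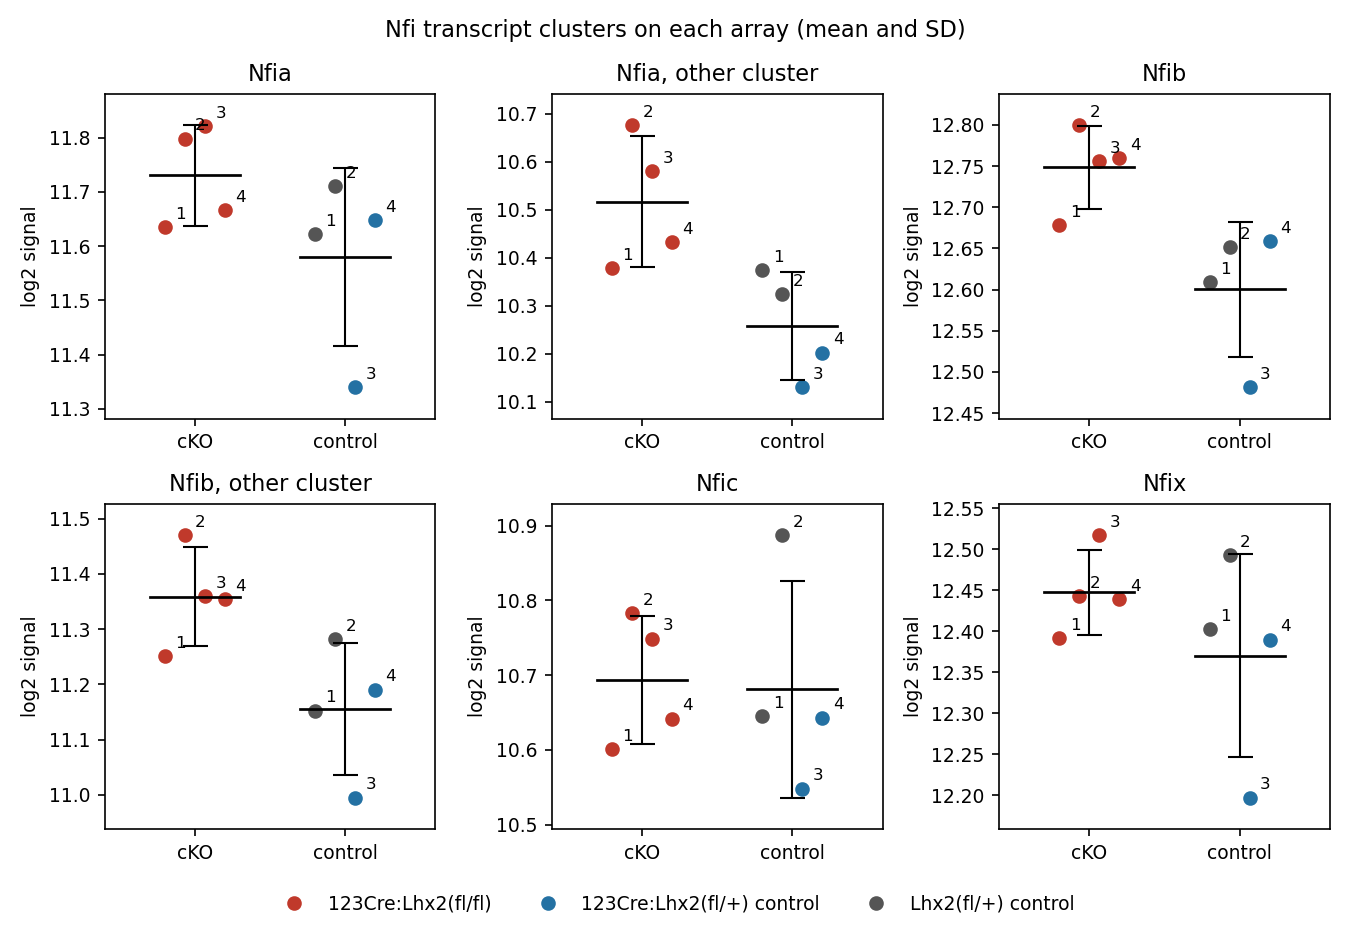
Log2 signal of the 6 transcript clusters that name an NFI gene, 1 point per array numbered as in the text, with the mean (bar) and SD (whisker) of 4 cKO and 4 control arrays; each panel has its own vertical axis. The cKO points lie above all control points for Nfib and for the other Nfia cluster, and control 3 is the lowest point in every panel.

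The array holds a further cluster for Nfia and for Nfib, each with a lower signal. The other Nfia cluster (10506050) read 10.38, 10.68, 10.58 and 10.43 in cKO mice 1 to 4, against 10.37, 10.32, 10.13 and 10.20 in controls 1 to 4. All cKO arrays were above all control arrays, although cKO 1 exceeded control 1 only in the third decimal place. Its difference of 0.26 (SE 0.08, 95% interval 0.07 to 0.45) is 19.6% more mRNA and the largest of the NFI clusters, with a p of 0.0123 by limma before and 0.175 after adjustment over all 28312 clusters. The other Nfib cluster (10514049) read 11.25, 11.47, 11.36 and 11.35 in cKO mice 1 to 4, against 11.15, 11.28, 10.99 and 11.19 in controls 1 to 4. Only control 2 reached into the cKO range, and the difference was 0.20 (SE 0.07, 95% interval 0.04 to 0.37, adjusted p = 0.240 by limma). Within each gene both clusters were thus higher in cKO means, and the clusters of 1 gene did not differ beyond their spread in the size of the difference (0.11 more in the other Nfia cluster, exact permutation p = 0.229; 0.06 more in the other Nfib cluster, exact permutation p = 0.143; two-sided). Which transcripts each cluster reads is not stated in the files.

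**Figure D2:**
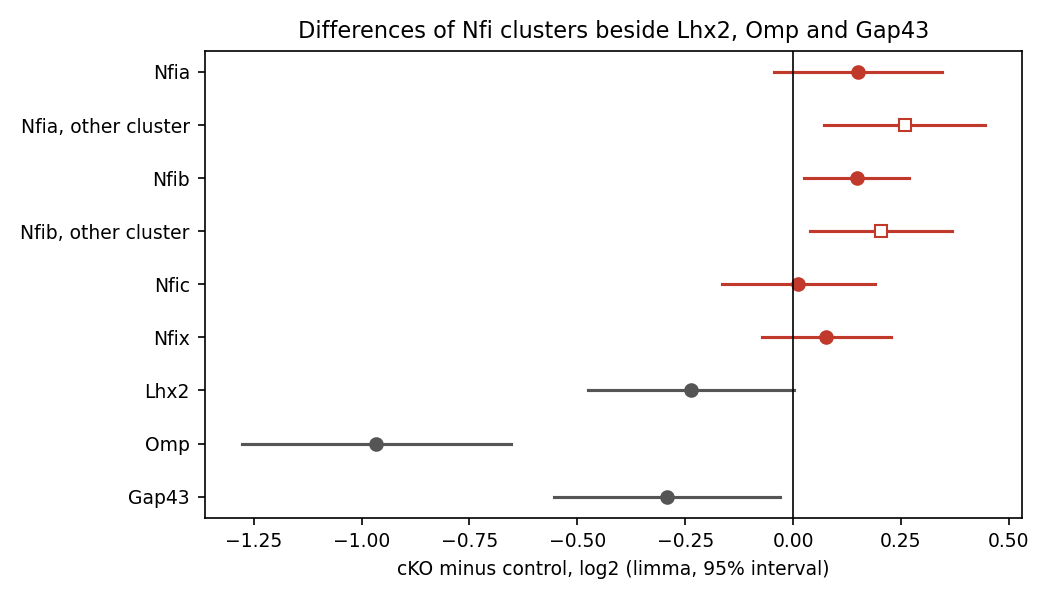
Cluster differences (cKO minus control, log2, horizontal axis) with 95% intervals from limma, for the NFI genes in red (open squares, other clusters of the same gene) and Lhx2, Omp and Gap43 in grey. The intervals of Nfib and of both other clusters lie above 0 and those of Nfia, Nfic and Nfix cross it, while Omp is at -0.97.

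Lhx2 and a pair of OSN markers of the same arrays give a scale for these sizes. Omp, the olfactory marker protein of mature OSNs, differed by -0.97 (SE 0.14, adjusted p = 0.00605 by limma). Lhx2 itself read 13.03, 12.55, 13.01 and 13.02 in cKO mice 1 to 4, against 13.14, 13.09, 13.20 and 13.13 in controls 1 to 4, and all cKO arrays lay below all controls (-0.24, SE 0.11, adjusted p = 0.337 by limma). Because its cluster combines probes of all exons and only the first are removed, this is a weak check of the labels. Gap43, a growth cone protein of immature OSNs, differed by -0.29 (SE 0.12, adjusted p = 0.268 by limma). Only the size of Omp was well above those of the NFI clusters. Array cKO 2 was the lowest in all 3 genes, and without it the difference was -0.12 for Lhx2, -0.81 for Omp and -0.16 for Gap43.

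**Figure D3:**
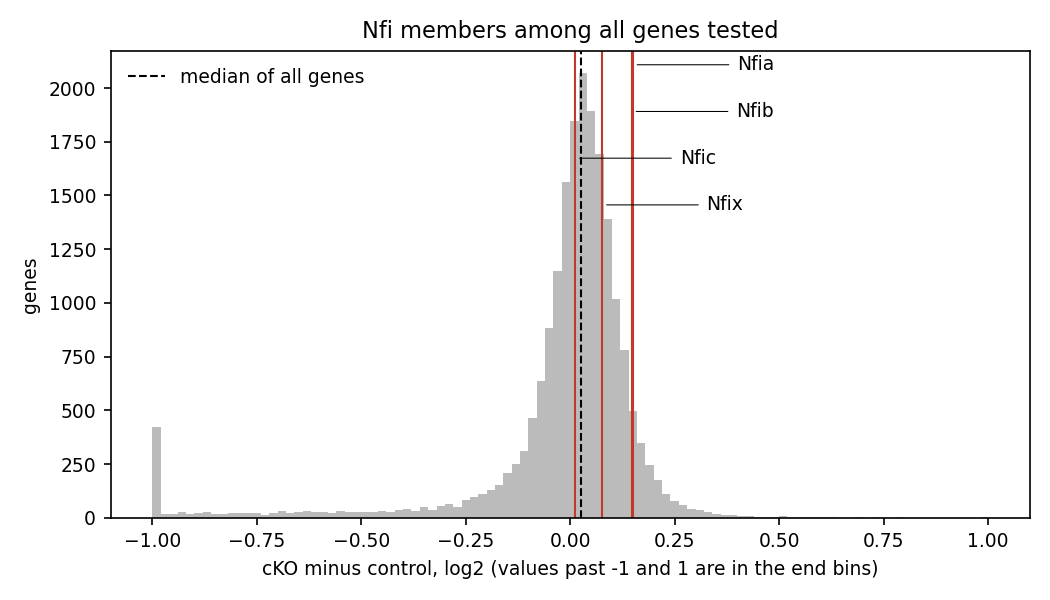
Distribution of the cKO minus control log2 differences of 19928 genes (horizontal axis; bars count genes, and values past -1 and 1 are in the end bins), with a red line for each NFI gene and a dashed line at the median of 0.03. Nfia and Nfib, both at 0.15, lie on the right shoulder, Nfix at 0.08 is nearer the centre, and Nfic at 0.01 is left of the median.

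The promoter windows of RefSeq (assembly GRCm38.p6; 250 bases before to 50 bases after a transcript start) were searched for letters that a LIM-homeodomain protein can bind, TAATTA and TAATTG, and for the NFI arm TTGGC, on both strands. The table of windows matched 3 of the 4 members, with 1 window for Nfia, 1 for Nfic and 4 for Nfix. Shown here are the windows of Nfia and Nfix, which hold the homeodomain letters, that of Nfic, which holds neither, and the Nfix window with an NFI arm on each strand. All are written 5′ to 3′ on the strand of the gene with the matched letters in capitals.
Nfia, chr4:97581693-97581992, plus strand: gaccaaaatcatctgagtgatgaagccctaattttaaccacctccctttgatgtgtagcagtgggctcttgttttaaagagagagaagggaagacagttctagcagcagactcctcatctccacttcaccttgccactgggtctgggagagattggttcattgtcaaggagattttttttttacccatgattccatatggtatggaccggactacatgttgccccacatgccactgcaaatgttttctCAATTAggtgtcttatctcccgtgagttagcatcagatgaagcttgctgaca
Nfix, chr8:84780033-84780332, minus strand: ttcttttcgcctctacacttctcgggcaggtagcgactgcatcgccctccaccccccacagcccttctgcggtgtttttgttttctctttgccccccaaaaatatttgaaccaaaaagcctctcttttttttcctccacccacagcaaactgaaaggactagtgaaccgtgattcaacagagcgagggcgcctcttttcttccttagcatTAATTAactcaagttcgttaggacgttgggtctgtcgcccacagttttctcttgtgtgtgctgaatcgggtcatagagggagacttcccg
Nfic, chr10:81427124-81427423, minus strand: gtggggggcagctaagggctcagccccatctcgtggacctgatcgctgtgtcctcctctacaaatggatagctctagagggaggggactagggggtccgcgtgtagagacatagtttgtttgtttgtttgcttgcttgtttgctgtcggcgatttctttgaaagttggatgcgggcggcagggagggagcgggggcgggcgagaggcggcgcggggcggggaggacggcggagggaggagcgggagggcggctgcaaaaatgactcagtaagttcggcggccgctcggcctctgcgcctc
Nfix, chr8:84772826-84773125, minus strand: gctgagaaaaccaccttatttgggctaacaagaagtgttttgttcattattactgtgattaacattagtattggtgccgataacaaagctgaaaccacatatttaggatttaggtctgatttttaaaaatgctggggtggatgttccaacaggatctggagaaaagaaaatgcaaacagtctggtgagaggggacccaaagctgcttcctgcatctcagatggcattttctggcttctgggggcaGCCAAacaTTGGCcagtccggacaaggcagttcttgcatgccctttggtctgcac

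In the Nfia window the capitals are TAATTG read on the opposite strand, and they begin 2 bases before the annotated start. In the first Nfix window TAATTA begins 40 bases before the start. Of all 32851 windows, 5.29% hold TAATTA, 8.0% hold TAATTG and 46.7% hold TTGGC, so none of these letters is rare. The window of Nfic is the richest in G and C of those printed (63.0%, against 44.7% for Nfia and 49.3% for the first Nfix window) and holds none of the 3. In the last Nfix window GCCAA and TTGGC stand 3 bases apart, closer than the arms of the palindrome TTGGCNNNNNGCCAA and in the opposite order. Such matches describe letters, not binding, and which Nfix start is used in the mucosa is not known from these arrays.

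The promoter search was turned round to look at genes that could carry an NFI site. The full palindrome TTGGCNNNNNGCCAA occurs in 0.0365% of windows, in 12 genes, and of the 7 tested 0 passed limma's threshold, 0 had an unadjusted p under 0.05 and 0 were called by the methods' t-test. The shorter TGGCNNNNNGCCA, which the full palindrome contains, occurs in 0.807% of windows. Of its 154 tested genes 0 passed in either direction by limma or by the methods' t-test, where 2.28% of all 15610 tested genes with a window passed by limma, and 15 (9.74%) had an unadjusted p under 0.05 by limma, against 15.5% of those genes. The single arm TTGGC stood before 8219 tested genes, of which 8 were higher and 132 lower (1.70%). For the shorter palindrome the median difference was 0.048 and 73.4% of its genes were above 0. For the single arm these values were 0.028 and 63.8%, and for all genes with a window 0.025 and 61.8%.

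The NFI levels were also set out by control genotype, with no test, since each has 2 arrays. Nfia averaged 11.73 ± 0.09 in 123Cre:Lhx2(fl/fl) mice, 11.49 ± 0.22 in 123Cre:Lhx2(fl/+) controls and 11.67 ± 0.06 in Lhx2(fl/+) controls (SD, n = 4, 2 and 2), and genotypes next to each other in level overlapped. Nfib averaged 12.75 ± 0.05 in 123Cre:Lhx2(fl/fl) mice, 12.57 ± 0.13 in 123Cre:Lhx2(fl/+) controls and 12.63 ± 0.03 in Lhx2(fl/+) controls. Among these clusters, those with the highest mean, the cKO arrays cleared both control genotypes only for Nfib. In the other clusters they did so narrowly for Nfia and not for Nfib. Nfix averaged 12.45 ± 0.05 in 123Cre:Lhx2(fl/fl) mice, 12.29 ± 0.14 in 123Cre:Lhx2(fl/+) controls and 12.45 ± 0.06 in Lhx2(fl/+) controls. Its cKO mean equalled that of the controls without Cre to the second decimal and was 0.15 above that of the controls with Cre. Nfic averaged 10.69 ± 0.09 in 123Cre:Lhx2(fl/fl) mice, 10.60 ± 0.07 in 123Cre:Lhx2(fl/+) controls and 10.77 ± 0.17 in Lhx2(fl/+) controls, with the cKO mean between the 2 control genotypes. In all 4 genes the 123Cre:Lhx2(fl/+) mean was the lowest, but 1 of its 2 arrays is control 3.

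Each sample title opens with an A or a B, which the labels do not explain. Among arrays of letter A (3 cKO, 2 controls) the difference was 0.21 for Nfia, 0.16 for Nfib, 0.07 for Nfic and 0.16 for Nfix. Among arrays of letter B (1 cKO, 2 controls) it was 0.13 for Nfia, 0.17 for Nfib, 0.02 for Nfic and -0.0046 for Nfix. Nfib was thus as far apart within each letter as in the pooled comparison. Letter and genotype cannot be told apart among the controls, since all of letter A are 123Cre:Lhx2(fl/+). Among females, by sex-linked mRNAs (1 cKO, 2 controls), the difference was 0.16 for Nfia, 0.17 for Nfib, 0.14 for Nfic and 0.05 for Nfix. Among males (3 cKO, 2 controls) it was 0.18 for Nfia, 0.16 for Nfib, -0.05 for Nfic and 0.10 for Nfix. The only female cKO is also the only cKO of letter B, so the splits share their cKO arrays.

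Members were then compared with one another, by the difference of their log2 values on each array, in 6 pairs. The exact permutation test (two-sided, adjusted over the 6 pairs) has a smallest possible p of 0.0286, and 1 pair alone at that value reaches only 0.171 after adjustment, so the design could hardly pass 0.05 and none of the pairs did. The pair that came closest was Nfia over Nfic, at 1.04 ± 0.03 in cKO mice and 0.90 ± 0.11 in controls (SD, n = 4 each), where the groups did not overlap (exact p = 0.0286, adjusted p = 0.171). Nfib over Nfic differed by 0.14 as well (exact p = 0.0571, adjusted p = 0.171). Nfia and Nfib kept the same distance in both groups, with a difference of 0.0024 (exact p = 0.943), and the remaining pairs lay between -0.06 and 0.07 (adjusted p = 0.206 for each).

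Some pairs of NFI mRNAs varied together from mouse to mouse. Of 6 pairs, 4 had an adjusted p under 0.05 by Pearson's r and 1 by Spearman's rho. Many genes outside the family had as high an r with a member. Among 9778 genes of at least median level, ranked by r, Nfix was 551st for Nfic and Nfib was 608th for Nfix, while Nfix was 20th for Nfia. Nfia and Nfix had Pearson's r = 0.95 over the 8 arrays (exact permutation p = 0.00422, adjusted over the 6 pairs 0.0155) and Spearman's rho = 0.88 (exact p = 0.00724, adjusted 0.0435). Nfia and Nfib had r = 0.90 (exact p = 0.00516, adjusted 0.0155) with rho = 0.74 (exact p = 0.0458, adjusted 0.0688). Both pairs lost part of their r when the 2 arrays farthest in Nfia, cKO 3 and control 3, were left out: r was then 0.61 for Nfia with Nfix and 0.72 for Nfia with Nfib. Nfib with Nfix gave r = 0.80 (exact p = 0.0223, adjusted 0.0446) and rho = 0.52 (exact p = 0.197, adjusted 0.236). Its r was 0.49 without cKO 2 and control 3 and 0.41 without control 3 alone, so this relation rests largely on control 3.

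Nfic followed Nfix (r = 0.76, exact p = 0.0313, adjusted 0.0469; rho = 0.81, exact p = 0.0218, adjusted 0.0653) and this relation was tighter without cKO 2 and control 2 (r = 0.91). Nfic with Nfia gave r = 0.72 (exact p = 0.0494, adjusted 0.0593) and rho = 0.74 (exact p = 0.0458, adjusted 0.0688), and r was 0.71 without cKO 3 and control 3. Nfib and Nfic were the least alike (r = 0.49, exact p = 0.222; rho = 0.29, exact p = 0.501), and r was -0.03 without cKO 2 and control 3. With each group mean removed, r ran between 0.71 and 0.94 in the 6 pairs. All members share the same 8 RNA samples, so anything that differs between whole samples moves them together.

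The genes most like each member over the 8 arrays, among 9778 genes of at least median level, were of varied kinds. For Nfia they were Ctsc, a lysosomal protease, Gnai2, an inhibitory G protein subunit, and Syde1, a GTPase activating protein (each r = 0.98). Nfix ranked 20th and Nfib 82nd among the genes like Nfia, while Nfic ranked 1133rd. For Nfib they were Creld2, an endoplasmic reticulum protein (r = 0.98), Armcx4 (r = 0.97) and Clvs1, a clathrin vesicle protein (r = 0.96), with Nfia in place 47. For Nfic they were Pcbp1, an RNA-binding protein (r = 0.97), Fgd1, an exchange factor for Cdc42 (r = 0.96), and Srpx2, a secreted protein (r = 0.96). For Nfix they were Fndc3b (r = 0.99), Rbms2, an RNA-binding protein (r = 0.98), and Slc25a30, a mitochondrial carrier (r = 0.97), with Nfia in place 23. With group means removed Ctsc and Gnai2 stayed with Nfia beside Tmem167b, Creld2 stayed with Nfib beside Pdia4 and Usp25, Fndc3b stayed with Nfix beside Kdelr1 and Tmem167b, and Nfic was followed by P3h3, Tnfrsf1a and Tln1. The median r over all ranked genes was 0.15 to 0.19 for the 4 members, and these likenesses are descriptions over 8 arrays.

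Control 3 was the lowest of the 8 arrays in every NFI cluster. Its distance from the next control was 0.762 of the control range for Nfia, 0.720 for Nfib and 0.652 for Nfix, short of Dixon's 95% critical value for 4 arrays. Without it the difference was 0.07 for Nfia (adjusted p = 0.739 by limma), 0.11 for Nfib (adjusted p = 0.395) and 0.02 for Nfix (adjusted p = 0.921), and that of Nfic was -0.03. The same array was lowest in the mean of the markers of olfactory ensheathing glia (9.66, against 9.78 to 10.12 in the other controls) and of connective tissue and vessels (11.15, against 11.29 to 11.48). Of the 5 glial genes 0 passed the test (list range 9.90 to 10.05 in cKO mice and 9.66 to 10.12 in controls). Of the 9 connective tissue and vessel genes 0 passed (11.20 to 11.46 in cKO mice and 11.15 to 11.48 in controls), where 2.13% of all genes did. The part of these cells in the NFI values was not tested.

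**Figure D4:**
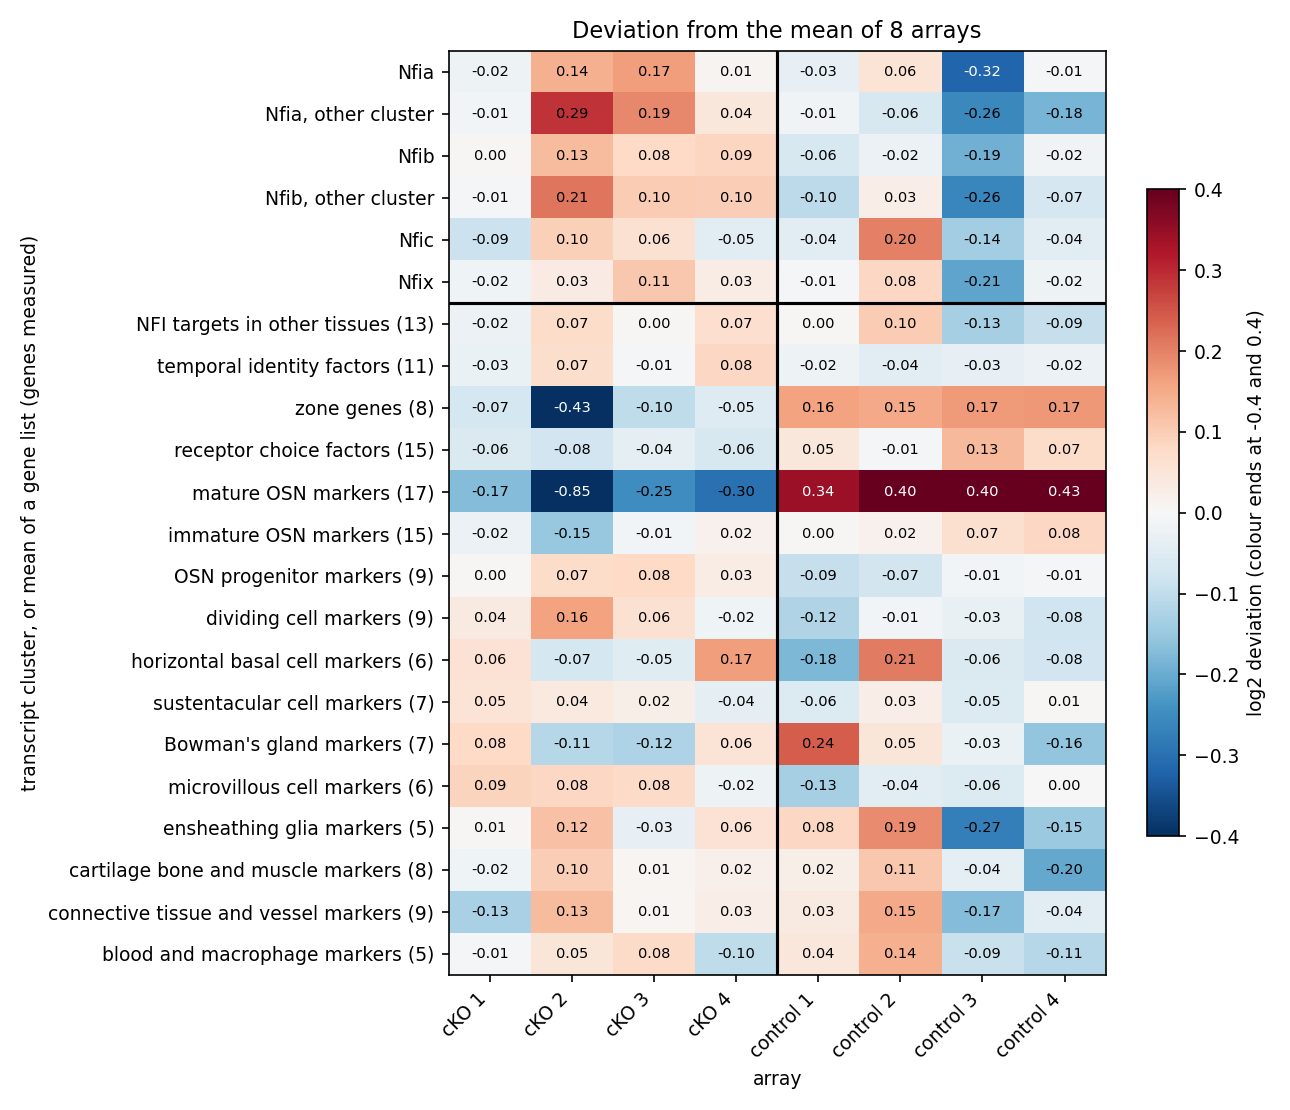
Log2 deviation of each array from the mean of the 8 arrays (columns, cKO left and control right) for the 6 NFI clusters and for the mean of each gene list (rows, number of genes measured in brackets); colours end at -0.4 and 0.4. Control 3 is blue in every NFI row and in the ensheathing glia row, and the mature OSN row is blue in all cKO and red in all control arrays.

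Markers of other cell types in the mucosa moved beside the NFI genes to differing degrees. Mature OSN markers were lower, 6 of 17 past the threshold, where 2.07% of all genes were. The median of this list was -0.62, and its mean was 10.96 to 11.63 in cKO mice against 12.15 to 12.24 in controls. Markers of OSN progenitors, cells that also make NFI mRNAs, had a median of 0.14 with 0 of 9 past the threshold by limma and 0 by the methods' t-test (before adjustment, limma's p was under 0.05 for 4 higher and 1 lower). Their list mean was 11.12 to 11.20 in cKO mice against 11.03 to 11.11 in controls, so that the groups did not overlap. Genes of dividing cells had a median of 0.13, and list means of 11.13 to 11.31 in cKO mice against 11.02 to 11.14 in controls. Of 9 measured, 0 passed the threshold by limma, where 2.13% of all genes did, and 0 by the methods' t-test. Before adjustment, limma's p was under 0.05 for 3 higher, where 5.13% of all genes were. The progenitor and dividing cell medians are close to the 0.15 of Nfia and Nfib and above the 0.08 of Nfix and 0.01 of Nfic. Control 3, the lowest array in every NFI cluster, deviated by -0.01 in the progenitor list and -0.03 in the dividing cell list. In both lists control 1 was the lowest array. The part of such cells in the NFI values was not tested. Immature OSN markers had a median of -0.01, with 1 of 15 lower past the threshold, where 2.07% of all genes were. That gene was Stmn4 of the stathmin family (-0.30, SE 0.04, adjusted p = 0.00447 by limma).

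In the remaining lists 0 markers passed the test, and the medians were 0.06 for horizontal basal cells (6 genes), 0.06 for sustentacular cells (7), 0.01 for Bowman's glands (7), 0.10 for microvillous cells (6), 0.08 for ensheathing glia (5), 0.08 for cartilage, bone and muscle (8), 0.02 for connective tissue and vessels (9) and 0.09 for blood and macrophages (5). At an unadjusted p under 0.05 by limma 1 microvillous gene was higher, where 5.13% of all genes were. The methods' t-test called 0 in each of these lists, and limma's threshold was passed by 2.13% of all genes.

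Genes known as targets of NFI proteins in brain and other tissues were followed next. Of 13 such genes 0 passed the test by limma and 0 by the methods' t-test, 2 were higher at an unadjusted p under 0.05, and the median was 0.04. Ephb1, a receptor tyrosine kinase that NFI proteins switch on in maturing cerebellar granule cells, read 9.77, 9.79, 9.87 and 9.66 in cKO mice 1 to 4, against 9.48, 9.66, 9.52 and 9.71 in controls 1 to 4 (difference 0.18, SE 0.07, adjusted p = 0.238). Slc1a3, the astroglial glutamate transporter, read 9.27, 9.33, 9.47 and 9.91 in cKO mice 1 to 4, against 9.22, 9.39, 8.98 and 9.03 in controls 1 to 4 (difference 0.33, SE 0.15, adjusted p = 0.332), and cKO 4 alone stood far above the rest. Gfap, the astroglial filament protein, differed by 0.23 (SE 0.12, adjusted p = 0.450) and Cntn2, an axonal adhesion protein, by -0.17 (SE 0.10, adjusted p = 0.485). In each of these genes the groups overlapped. The list mean was lowest on control 3 (9.83), as the NFI genes were. Gfap had a low signal, with means of 7.43 in cKO mice and 7.19 in controls, below the lower quartile of all genes (7.52).

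Nfia and Nfib also belong to the sequence of transcription factors that marks neurons by their time of birth. Of 11 such factors 0 passed the test by limma and 0 by the methods' t-test (3 higher and 2 lower at an unadjusted p under 0.05, where 2989 of all 19928 genes were on either side), with a median of 0.08. The late factors Neurod2 (0.12, SE 0.05, adjusted p = 0.243) and Neurod6 (0.30, SE 0.11, adjusted p = 0.255) had positive differences, as did Neurod1 (0.15, SE 0.06, adjusted p = 0.292), which also serves nascent OSNs, and the early factor Onecut2 had a negative one (-0.13, SE 0.05, adjusted p = 0.271). The related Onecut1 and Onecut3 stood at 0.05 and 0.03. Neurod6 had a low signal, with means of 6.15 in cKO mice and 5.86 in controls, below the lower quartile of all genes (7.52). Neurod2 read 7.90, 7.96, 7.82 and 7.97 in cKO mice 1 to 4, against 7.82, 7.81, 7.77 and 7.75 in controls 1 to 4. It was the only gene of this list whose groups did not overlap, where 11.6% of all genes did not, and control 1 and cKO 3 were nearly equal.

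The list of 8 zone genes holds genes of dorsal or ventral expression in the epithelium and also Nrp1, for which no such zone is given here. Of the 8, 0 passed the threshold by limma, where 2.13% of all genes did, and 0 by the methods' t-test. Before adjustment limma's p was under 0.05 for 1 higher and 4 lower genes, where 2989 of all 19928 genes were on either side, and the groups of 5 did not overlap, where 11.6% of all genes did not. The median was -0.24, and single genes ranged from -1.18 to 0.16, with Slit1 at -0.03 and Acsm4 at -0.16. Nqo1, the quinone reductase of dorsal OSNs, read 11.39, 10.19, 10.91 and 11.07 in cKO mice 1 to 4, against 12.06, 11.99, 12.30 and 11.92 in controls 1 to 4 (difference -1.18, SE 0.22, adjusted p = 0.0175). Robo2, a dorsal axon guidance receptor, read 11.69, 11.69, 11.67 and 11.85 in cKO mice 1 to 4, against 12.01, 11.93, 12.18 and 12.02 in controls 1 to 4 (difference -0.31, SE 0.07, adjusted p = 0.0272). Both sets of cKO values lay wholly below the controls. Sema3f, a semaphorin made by dorsal OSNs that repels ventral axons, had the opposite sign (0.16, SE 0.05, adjusted p = 0.181), with all cKO arrays above all controls.

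Nrp2, the semaphorin receptor of ventral axons, differed by 0.13 (SE 0.10, adjusted p = 0.606). Ncam2, a ventral adhesion protein, differed by -0.65 (SE 0.33, adjusted p = 0.428), with cKO 2 at 9.30 and the other cKO mice at 10.74 to 10.93, against 10.96 to 11.24 in controls. Nrp1, a receptor for other semaphorins, differed by -0.59 (SE 0.14, adjusted p = 0.0437). Mature OSN markers were lower on the same arrays, and their part in the zone genes was not tested.

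Among 15 factors and enzymes of OR choice 1 was lower and 0 were higher, where 2.07% of all genes were lower and 0.0602% higher. The median of the list was -0.01. Adcy3, the adenylyl cyclase of odor transduction that stabilises receptor choice and is also a mature OSN marker, differed by -0.86 (SE 0.09, adjusted p = 0.00267). Ebf4, an Olf/Ebf factor, differed by -0.46 (SE 0.09, adjusted p = 0.0192), Atf5, the stress response factor of receptor feedback, by -0.23 (adjusted p = 0.196), and Ebf3 by -0.11 (adjusted p = 0.329).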

How the data were processed

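The values as deposited by the authors are log2 signals of 28312 transcript clusters, in which the probe sets for the exons of a gene are summarized together. The submitters' processing notes name Affymetrix Expression Console. The background correction, the summarization and the build of the array are not given in the sources used. Clusters were named from the platform annotation (1 symbol for 21759, several for 1605, none for 4948), and 21668 were matched to RefSeq by Entrez identifier. For each gene the cluster with the highest mean was kept, which left 19928 genes. Array medians over these were 9.13 to 9.21, and arrays of a group differed by a root mean square of 0.16 to 0.28. The number of arrays limits the precision.

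The cKO minus control difference was fitted with limma 3.58.1 (R 4.3.3), lmFit and eBayes, two-sided, with Benjamini-Hochberg adjustment over all genes and a threshold of 0.01. The script was tested on simulated data. Pairs of members and correlations were tested by exact permutation (SciPy 1.17.1). Replicate numbers follow accession order and pair nothing. Each litter with cKO mice supplied controls too in the study, and since litters are not labelled p-values measure the spread between these mice. The methods' t-test was run on the deposited values, without the correction for mature OSN number that the study applied before it. The alternatives are given in the closing section.

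The members and lists were chosen with earlier results of these data known. Named genes were the NFI clusters, Lhx2, Omp and Gap43, up to 4 genes of each list with the smallest p, and the 3 genes most correlated with each member, with and without group means. Named outside this rule, after their values were seen, were Ncam2, Nrp2, Slit1, Acsm4, Onecut1 and Onecut3.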

Additional observations from a re-analysis of the deposited data

Results flagged for a closer look

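None of the NFI clusters had an array that stood apart from its group by Dixon's criterion. Among the genes given beside them, 2 did, both through cKO 2, which was the lowest of its group in Lhx2 (log2 12.55, with the other cKO arrays at 13.01 to 13.03) and in Omp (log2 12.00, with the others at 12.58 to 12.68). Chance alone gives such a value in about 1 of 20 groups. Without cKO 2 the difference was 0.13 for Nfia, 0.13 for Nfib, -0.02 for Nfic and 0.08 for Nfix.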

How the results depend on the processing

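Under all 20 alternatives 0 of the 4 NFI genes passed the threshold, the methods' t-test and an adjusted p under 0.05 among them. Nfia kept its positive sign, at 0.06 with only the Lhx2(fl/+) controls, 0.24 with only the 123Cre:Lhx2(fl/+) controls and 0.07 to 0.19 without 1 array. Nfib was the steadiest, at 0.12 to 0.18 and 0.11 to 0.17 without 1 array (adjusted p by limma or the methods' t-test 0.109 to 0.528). Nfix was 0.02 to 0.12 without 1 array. Nfic turned negative in 6 of 20, at -0.0053 with arrays centred on the median of genes that encode no chemoreceptor, at -0.073 with only the Lhx2(fl/+) controls and within -0.032 to 0.081 without 1 array. The difference between Nfia and Nfib turned negative in 4 of 13, at -0.054 with only the Lhx2(fl/+) controls and within -0.038 to 0.029 without 1 array. The causes were not tested.

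Calls over all genes numbered 424. The methods' t-test, without their correction for mature OSN number, gave 1, an adjusted p under 0.05 gave 1104 (73 higher, 1031 lower), every cluster kept gave 249, and either control genotype alone, with 2 arrays, gave 0. Without 1 array there were 30 (no control 1) to 676 (no cKO 2). The other settings gave 319 to 617. Quantile normalization moved the median of all genes to 0.05 and centring to 0.008. The title letter as a block gave 617. No paired analysis was possible because the labels carry no shared replicate numbers and do not say which mice were of 1 litter.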
